A study of Mus musculus with 24 samples.

Results

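Coagulation in blood plasma runs through a cascade of proteins that are made mainly by the liver. Tissue factor and factor VII start it, factors XI, IX and X carry it on, factor V assists factor X, and thrombin, which is cut from prothrombin (F2), turns fibrinogen into fibrin. Antithrombin (Serpinc1) restrains these proteases. Fibrinogen is built from the chains that *Fga*, *Fgb* and *Fgg* encode, and hepatocytes raise its synthesis in the acute phase response to interleukin-6.

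The transcripts described here were those of 10 genes: the proteases *F2*, *F7*, *F9*, *F10* and *F11*, the cofactor *F5*, the fibrinogen chains *Fga*, *Fgb* and *Fgg*, and the inhibitor *Serpinc1*. They were found by the accession that the array design gives for each probe (NM_010168, NM_010172, NM_007979, NM_007972, NM_028066, NM_007976, NM_010196, NM_181849, NM_133862 and NM_080844, in that order). This selected 13 of 55681 probes and 10 of 21368 named genes, since *F5*, *F7* and *Fga* each had a second probe. For each gene with 2 probes, the probe with the higher mean over all arrays was used, and the other was set beside it.

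RNA of liver, brain, heart and skeletal muscle from 6 male mice was hybridised to 24 one-colour arrays, 6 per tissue. Of these mice, 3 were wild type (WT) and 3 were homozygous for the I312R change in Rap1 (Rap1 KI/KI, here KI), a subunit of the telomere-protecting shelterin complex that also acts at genes outside telomeres. The knockin allele was made with CRISPR/Cas9 and bred onto C57BL6. The allele is in the germ line, so all tissues of a KI mouse carry it. Mouse 1 of each genotype was 5 months old and mice 2 and 3 of each genotype were 2 months old. All values are whole-tissue averages, in which fewer cells of a type and less RNA per cell cannot be told apart.

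A level is the log2 probe signal minus the log2 of its array's 75th percentile signal, so 0 is the 75th percentile of that array and each step of 1 is a doubling. The 75th percentile signal was between 573.1 and 1389 in livers, 873.7 and 1366 in brains, 569.4 and 1107 in hearts, and 470.7 and 529.2 in muscles. Between 56.5% and 72.7% of an array's probes stood well above background. The 6 livers lay on 1 slide and the 6 muscles on another. Brains and hearts were each split over 2 slides, and RNA of heart and muscle was extracted with another kit than RNA of liver and brain, so kit and tissue cannot be told apart for heart and muscle against the rest. Slides 1, 2 and 3 each held arrays of a pair of tissues, and values within them are given beside the pooled ones. The summed signal of 8 hepatocyte markers (albumin among them), in multiples of the 75th percentile, was between 2330 and 4300 in livers, 0.518 and 5.31 in brains, 8.91 and 69.3 in hearts, and 11.2 and 125 in muscles. *Cyp2e1* gave most of the sum in the muscle and the heart with the highest sums, at a level of 6.94 in the muscle of KI mouse 2, where *Alb* was -1.30 and the median of the markers -1.74, and at 5.55 in the heart of KI mouse 3, where *Alb* was -0.05.

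The liver was the tissue in which all 10 genes stood highest, in every mouse of both genotypes. By the probe used for each gene, liver exceeded the mean of the other tissues by 6.91 to 12.24 on the log2 scale. All 10 passed limma's adjusted threshold in this contrast, where 39.4% of all probes tested were called higher in liver. All 10 were also called higher in liver than in brain (45.6% of probes), in heart (34.4%) and in muscle (34.9%). The median difference of the 10 genes was 11.18 from the mean of the other tissues, 13 from brain, 9.77 from heart and 10.76 from muscle, while the median over all probes was 0.02, 0.35, -0.00 and -0.06. On slide 1, which held the 6 livers and 2 of the brains, all 10 genes were called higher in liver, by 7.32 (*F9*) to 14.30 (*F10*).

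**Figure D1:**
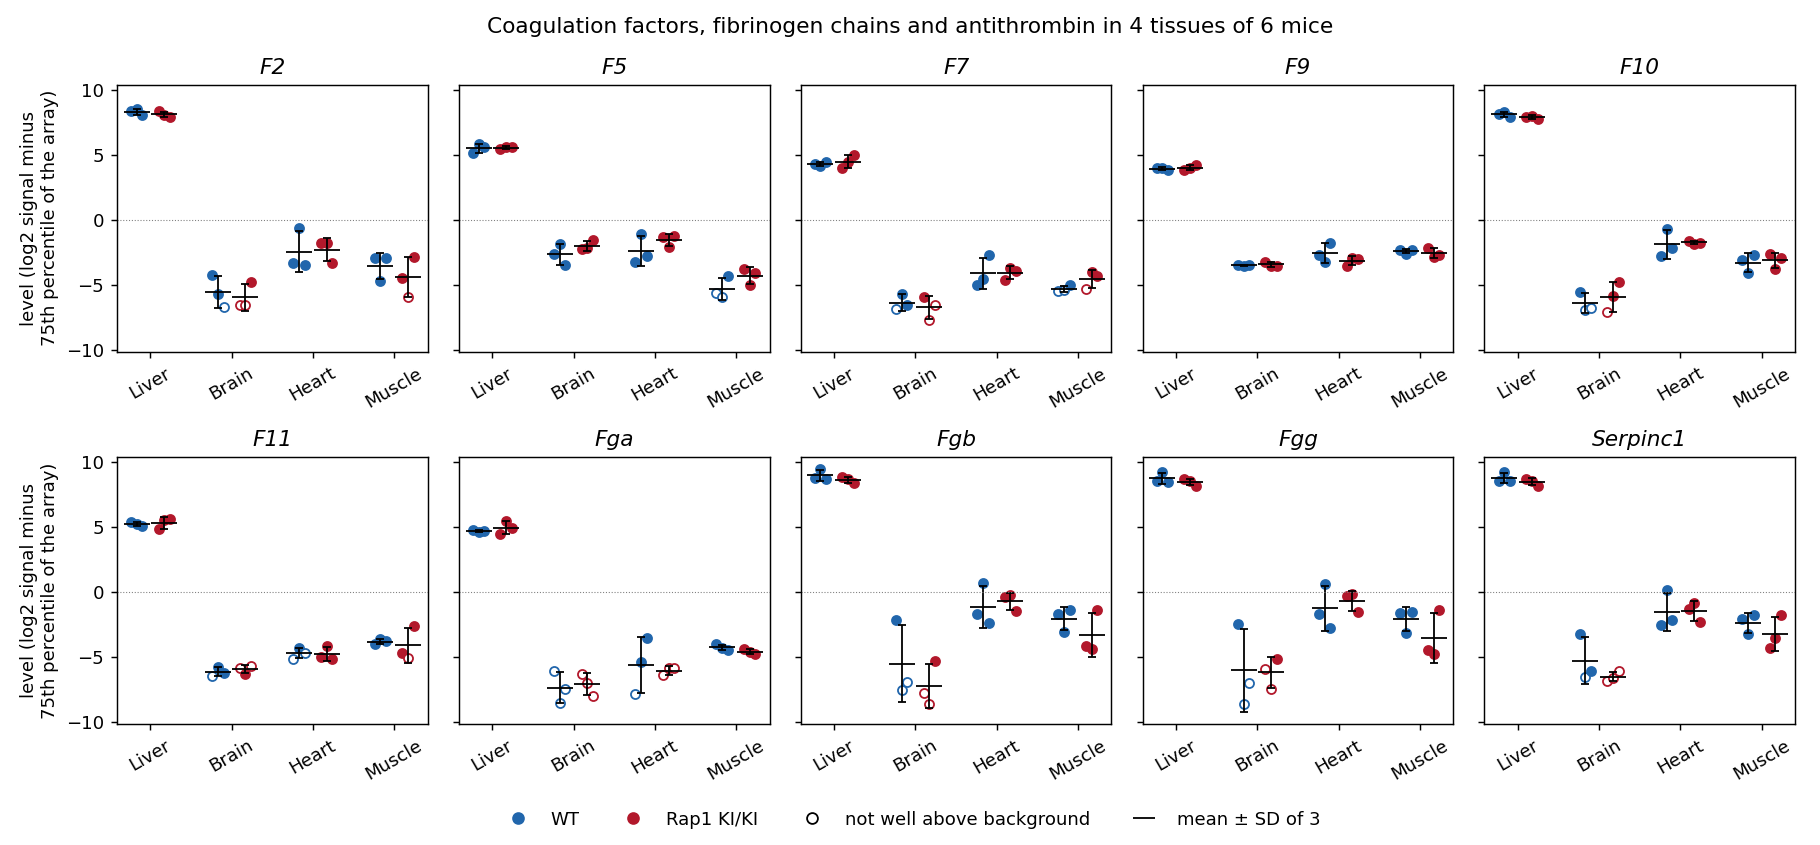
Level of each of the 10 genes (log2 signal minus the array's 75th percentile) in every array, by tissue, with WT and KI mice in separate colours, open points where the probe was not well above background, and lines for the mean and SD of 3 mice. For every gene the 6 livers lie above all 18 other arrays, and the probes' own levels are not to be set against each other.

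Prothrombin transcript *F2*, the zymogen of thrombin, had liver levels of 8.37, 8.55 and 8.09 in WT mice 1, 2 and 3 and of 8.37, 8.12 and 7.93 in KI mice 1, 2 and 3. The lowest, median and highest of the 6 arrays were -6.66, -6.09 and -4.22 in brain, -3.41, -2.51 and -0.61 in heart, and -5.87, -3.67 and -2.84 in muscle. Every liver lay above every other array, and the closest approach, a heart, was 374-fold below the lowest liver. *F2* was 4820-fold higher in liver than in the mean of the other tissues (log2 difference 12.24, SE 0.47, limma adjusted p = 9.48e-15). Its probe was well above background on 3 of 6 brains, 6 of 6 hearts and 5 of 6 muscles.

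Factor X transcript *F10*, whose product with factor Va makes thrombin, read 8.20, 8.31 and 7.91 in the WT livers and 7.98, 8.04 and 7.81 in the KI livers. Its lowest, median and highest values were -7.04, -6.28 and -4.75 in brain, -2.78, -1.76 and -0.64 in heart, and -4.06, -2.95 and -2.60 in muscle. The tissues followed the order liver, heart, muscle and brain. Liver was 3380-fold higher than the mean of the others (log2 difference 11.72, SE 0.32, limma adjusted p = 3.93e-17). Every neighbouring pair in this order differed, the closest being heart over muscle by 1.39 (limma adjusted p = 0.00682), although the arrays of those tissues overlapped. Within slide 3 that difference was 1.23 and was not called (limma adjusted p = 0.072).

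Factor IX transcript *F9*, whose loss causes haemophilia B, had the smallest excess in liver. Its liver levels were 4.05, 4.00 and 3.85 in WT mice and 3.87, 4.05 and 4.23 in KI mice. The lowest, median and highest values elsewhere were -3.54, -3.46 and -3.19 in brain, -3.50, -2.93 and -1.72 in heart, and -2.81, -2.42 and -2.12 in muscle, all of them well above background. Its liver excess of 6.91 (SE 0.16, 120-fold, limma adjusted p = 5.68e-18) had the smallest standard error of the 10 genes. The lowest liver stood 47.7-fold above the highest other array, a heart. Muscle and heart, next in order, did not pass the threshold against each other (heart minus muscle -0.39, limma adjusted p = 0.133), while muscle exceeded brain by 0.98 (limma adjusted p = 0.00024).

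Factor VII transcript *F7*, the protease that binds tissue factor, read 4.34, 4.19 and 4.50 in WT livers and 4.00, 4.47 and 5.03 in KI livers. It lay between -7.67 and -2.71 in the 18 other arrays and was well above background on 3 of 6 brains, 6 of 6 hearts and 3 of 6 muscles. Liver exceeded the mean of the others 763-fold (log2 difference 9.58, SE 0.30, limma adjusted p = 4.48e-16). Factor XI transcript *F11*, the protease that activates factor IX, read 5.39, 5.22 and 5.12 in WT livers and 4.84, 5.56 and 5.61 in KI livers, against -6.39 to -2.56 elsewhere. Its liver excess was 1150-fold (log2 difference 10.17, SE 0.26, limma adjusted p = 1.82e-17). For both genes all livers lay above all other arrays, and for both heart and muscle did not pass the threshold against each other (limma adjusted p = 0.0731 for *F7* and 0.0626 for *F11*). The second *F7* probe gave a heart minus muscle difference of 1.13 (limma adjusted p = 0.00106). It was well above background on 2 hearts and no muscle, and it passed the probe filter only through the livers. That difference was thus read near background and does not settle the order of heart and muscle.

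Factor V transcript *F5*, the cofactor of factor X, had another order of tissues. Its liver levels were 5.17, 5.83 and 5.64 in WT mice and 5.46, 5.67 and 5.65 in KI mice. The lowest, median and highest values were -3.45, -2.17 and -1.55 in brain, -3.21, -1.65 and -1.03 in heart, and -5.91, -4.64 and -3.72 in muscle. Each muscle lay below each brain and each heart. Liver exceeded the mean of the others 378-fold (log2 difference 8.56, SE 0.30, limma adjusted p = 1.81e-15).

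Heart and brain were not separated for *F5* (difference 0.38, limma adjusted p = 0.374), whereas muscle was 2.47 below brain on the log2 scale (difference -2.47, limma adjusted p = 5.86e-06) and 2.84 below heart (heart minus muscle 2.84, limma adjusted p = 2.92e-06). The second *F5* probe was not well above background on any muscle. It separated heart from brain (difference 0.80, limma adjusted p = 0.0188), which the first probe did not. For a comparison by the second probe, muscle values were raised to the lowest level of any probe well above background on that array, where they fell below it. So counted, liver was 894-fold and heart 4.51-fold higher than muscle. These are not strict lower bounds, since a probe could lie above that level and still not be well above background.

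Antithrombin transcript *Serpinc1*, the main plasma inhibitor of thrombin and factor Xa, read 8.60, 9.27 and 8.58 in WT livers and 8.73, 8.56 and 8.21 in KI livers. Its lowest, median and highest values were -6.79, -6.27 and -3.19 in brain, -2.52, -1.70 and 0.15 in heart, and -4.30, -2.64 and -1.75 in muscle. The lowest liver was 268-fold above the highest other array. The liver excess was 4170-fold (log2 difference 12.02, SE 0.45, limma adjusted p = 6.59e-15). The brain of WT mouse 1 read -3.19, apart from the other brains at -6.79 to -6.05.

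The fibrinogen genes lie within one region of chromosome 3, and the 250 bases before their RefSeq starts (GRCm38.p6, gene strand, 5′ to 3′) are shown because the chains are assembled together and their liver values could be compared mouse by mouse. *F9*, which had the smallest liver excess, is shown for contrast. All 10 genes matched an entry of the RefSeq promoter table. Capitals mark matches, on either strand, to HNF4 (CAAAGNTCA), C/EBP (TTGCNNAA) and the IL-6 response element core (CTGGGA), letters chosen after the sequences had been seen. *Fga* is at chr3:83025903-83026152 (+), *Fgb* at chr3:83049864-83050113 (-), *Fgg* at chr3:83007474-83007723 (+) and *F9* at chrX:59999214-59999463 (+).
Fga: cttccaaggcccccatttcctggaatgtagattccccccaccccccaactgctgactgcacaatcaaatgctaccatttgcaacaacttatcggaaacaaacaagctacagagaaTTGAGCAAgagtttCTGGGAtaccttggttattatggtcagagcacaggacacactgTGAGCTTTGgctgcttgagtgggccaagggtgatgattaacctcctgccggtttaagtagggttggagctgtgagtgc
Fgb: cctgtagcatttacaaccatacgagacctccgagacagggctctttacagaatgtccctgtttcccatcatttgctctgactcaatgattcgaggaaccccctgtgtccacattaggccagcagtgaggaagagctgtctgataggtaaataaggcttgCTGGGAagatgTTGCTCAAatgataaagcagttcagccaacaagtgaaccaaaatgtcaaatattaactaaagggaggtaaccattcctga
Fgg: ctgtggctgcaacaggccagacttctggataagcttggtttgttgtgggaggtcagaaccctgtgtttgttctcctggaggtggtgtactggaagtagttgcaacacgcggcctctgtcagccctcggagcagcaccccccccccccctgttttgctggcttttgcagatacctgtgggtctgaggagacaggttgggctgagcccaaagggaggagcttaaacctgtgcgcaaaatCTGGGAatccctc
F9: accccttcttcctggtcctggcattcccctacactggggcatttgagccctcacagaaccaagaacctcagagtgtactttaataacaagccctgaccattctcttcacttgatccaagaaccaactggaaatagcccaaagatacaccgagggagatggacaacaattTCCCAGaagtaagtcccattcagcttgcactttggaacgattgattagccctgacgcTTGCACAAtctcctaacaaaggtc

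A match is a description of the letters, not a site. The HNF4 letters occurred in 2 of the 10 windows (*F7* and *Fga*) and in 1.32% of 32851 promoter windows of that length, the C/EBP letters in 4 (*F9*, *F11*, *Fga* and *Fgb*) and in 9.56% of all, and the CTGGGA core in 5 (*F9*, *F10*, *Fga*, *Fgb* and *Fgg*) and in 27% of all. *Fga* was the member with a match to each of these motifs, and the CTGGGA core was shared by all 3 fibrinogen genes. None of the marked matches in the printed windows overlapped another.

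*Fgb*, the fibrinogen β chain, read 8.77, 9.47 and 8.75 in WT livers and 8.86, 8.75 and 8.41 in KI livers. Its lowest, median and highest values were -8.57, -7.19 and -2.09 in brain, -2.35, -0.90 and 0.72 in heart, and -4.38, -2.34 and -1.36 in muscle. *Fgg*, the γ chain, read 8.59, 9.26 and 8.47 in WT livers and 8.68, 8.57 and 8.19 in KI livers.

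*Fgg* ran from -8.58 to -2.45 in brain, -2.71 to 0.67 in heart and -4.75 to -1.33 in muscle. Both chains were highest in liver, and the heart of WT mouse 2 was the highest array outside the liver for both. Liver exceeded the mean of the others 4480-fold for *Fgb* (log2 difference 12.13, SE 0.66, limma adjusted p = 2.36e-12) and 3800-fold for *Fgg* (11.89, SE 0.69, limma adjusted p = 5.32e-12). For both, heart and muscle did not pass the threshold against each other (limma adjusted p = 0.0889 and 0.0819). With slide as a block these liver excesses were 9.57 and 8.60, still past the threshold.

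*Fga*, the fibrinogen α chain, read 4.79, 4.66 and 4.71 in WT livers and 4.49, 5.48 and 4.97 in KI livers. Outside the liver it was well above background on 0 of 6 brains, 2 of 6 hearts and 6 of 6 muscles. Its muscle levels lay between -4.76 and -3.99, while the hearts spread from -7.80 to -3.54.

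Liver exceeded the mean of the others 1600-fold by this *Fga* probe (log2 difference 10.64, SE 0.42, limma adjusted p = 1.2e-14), a value that takes brains at signals not well above background. With brain values raised in the way described for *F5*, liver was 2210-fold higher than brain. The second *Fga* probe read 7.39, 7.32 and 7.77 in WT livers and 7.47, 7.85 and 7.80 in KI livers. It was well above background on 1 brain, 1 heart and no muscle. With muscle values raised likewise, liver was 7790-fold higher than muscle by this probe. The probes thus disagreed on muscle: the first was above background on all 6 and the second on none.

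Among 42463 probes ranked by liver minus the mean of the others, the probes used for the 10 genes stood between rank 100 (*F2*) and rank 658 (*F9*). *Fga* stood at rank 244 by that choice and at rank 2 by its second probe (difference 14.55, 23900-fold). Outside the liver the second *Fga* probe was mostly not well above background, so the rank of *Fga* depended on the probe. The transcripts whose levels over all 24 arrays were most like the mean of the 10 genes were *Apoa1* (Pearson r 0.9976), *Cyp2d26* (0.9966), *Abcb11* (0.9962), *Cyp2c54* (0.9958) and *Ugt2b38* (0.9958), among 24373 probes. These correlations describe 24 arrays that share their tissues, and they are given without a test.

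Between the other tissues the 10 genes were not level. Heart was called higher than brain for 9 of the 10 genes (39.9% of all probes) and lower for 0 (27.7% of probes were called lower), and *F5* was not called. Muscle was called higher than brain for 9 (41.4% of probes) and lower for *F5* (28.7% of probes were called lower). The largest of these differences was that of *Fgb*, 5.45 between heart and brain (43.7-fold, SE 0.81, limma adjusted p = 7.06e-06), although its probe was above background on only 2 of 6 brains. With another background correction (normexp) this *Fgb* difference was 2.91. *Fga* was not well above background on any brain and on only 2 hearts, so its differences there were read near background. The probes of *F2*, *F7*, *F10* and *F11* were well above background on 3 of 6 brains, and those of *Fgg* and *Serpinc1* on 2. Differences of these genes from brain were therefore also read partly near background. The median difference of the 10 genes was 2.92 for heart minus brain and 2.44 for muscle minus brain, against 0.27 and 0.30 over all probes.

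Heart and muscle differed less. *F2* (difference 1.59, limma adjusted p = 0.0322), *F5* and *F10* were called higher in heart, 3 of 10 against 21% of all probes. The count higher in heart was 6 without WT mouse 1 or KI mouse 3 and 1 without WT mouse 2. *Fga* was called lower in heart (difference -1.39, limma adjusted p = 0.0343), 1 of 10 against 22.4% of probes. This call was absent without WT mouse 1, KI mouse 1, WT mouse 2 or KI mouse 3, with slide as a block, within slide 3 and in the mean over both probes. On slide 3, where 2 hearts and 6 muscles lay together, *F5* was still called higher in heart (difference 2.77, limma adjusted p = 0.00542). There, *F2* (0.58, limma adjusted p = 0.627) and *F10* (1.23, limma adjusted p = 0.072) were not called. On slide 2, which held 4 hearts and 4 brains, 7 of the 10 genes were called higher in heart, *Fgb* by 6.66 (limma adjusted p = 0.00014), while *F5* (0.37), *F9* (0.41) and *Fga* (1.37) were not.

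**Figure D2:**
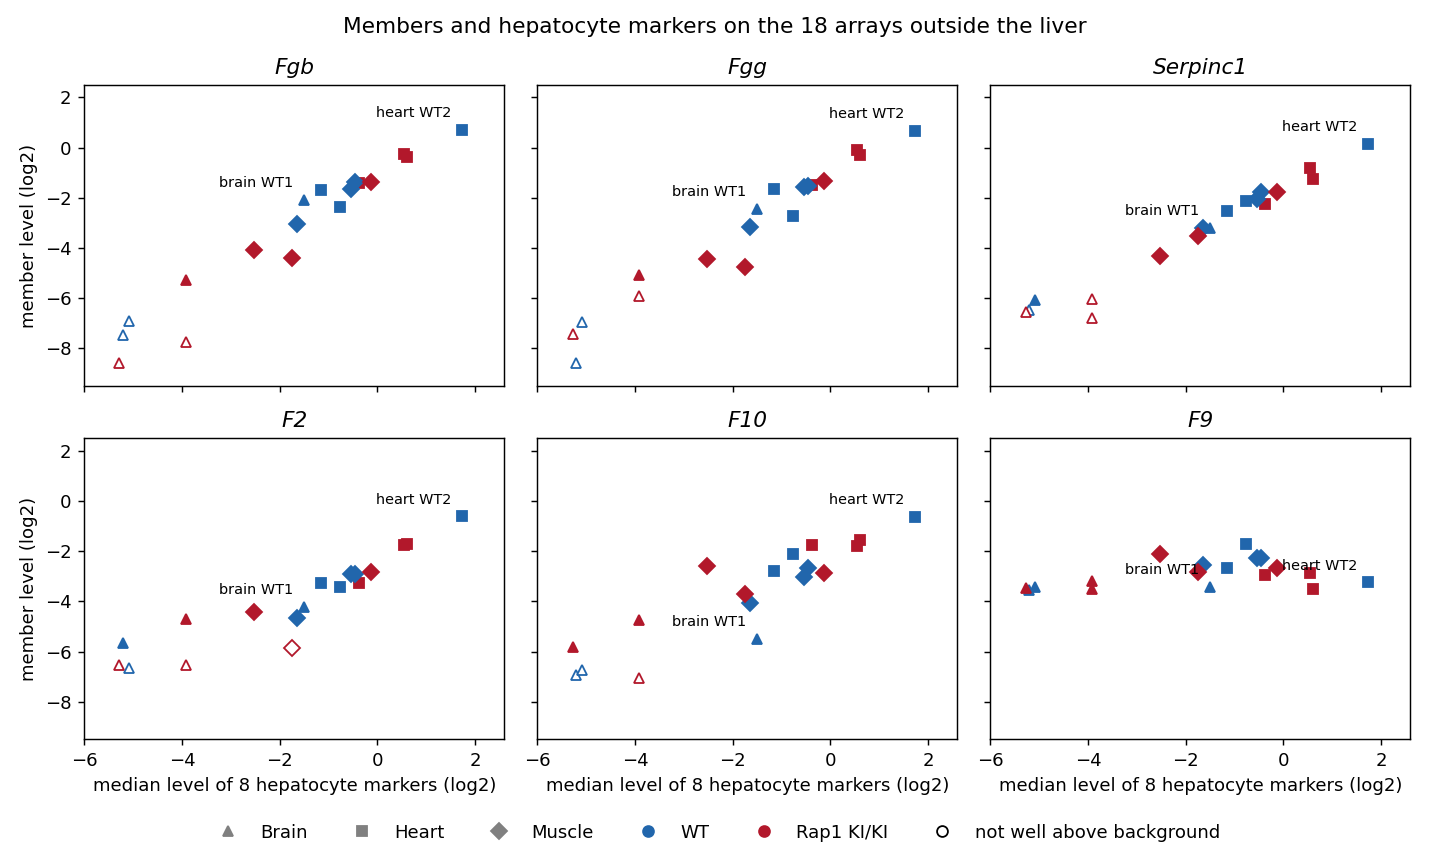
Level of 6 of the genes (vertical, log2 signal minus the array's 75th percentile) against the median level of 8 hepatocyte markers (horizontal, same unit) on each of the 18 brain, heart and muscle arrays, with open points where the gene was not well above background. The brain of WT mouse 1 (marker median -1.50) and the heart of WT mouse 2 (1.74) are named and lie farthest right among the arrays of their tissues.

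Single arrays outside the liver stood apart for several of the genes and for hepatocyte markers alike. The brain of WT mouse 1 was the highest of the 6 brains for 5 of the 10 genes and for 7 of 8 hepatocyte markers (albumin *Alb* 0.57, against -6.04 to -3.86 in the other brains). There, *Fgb* read -2.09 and *Fgg* -2.45, against -8.57 to -5.27 and -8.58 to -5.09 in the other brains. *F9* on that array was -3.43, within the other brains at -3.54 to -3.19.

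The heart of WT mouse 2 was the highest heart for 6 of the 10 genes and for 4 of 8 hepatocyte markers (*Alb* 2.95, against -0.46 to 1.76 in the other hearts). Its *Fgb* level was 0.72, where the other hearts lay between -2.35 and -0.23. The summed signal of 6 platelet markers was also highest there (63.4, against 31.9 to 55.7 in the other hearts). So were the sums of 5 neutrophil markers (26.8, against 4.97 to 21) and, by little, of 6 macrophage markers (53.8, against 41.5 to 53.5). The sum of 3 red cell markers was the lowest of the hearts (751), and that of 6 endothelial markers lay within them (42, against 27 to 57.2). In muscle, KI mouse 3 was highest for 5 of the 10 genes and 4 of 8 markers. The median of the 8 markers was -2.52, -1.74 and -1.64 in muscles of KI mice 1 and 2 and WT mouse 2, which were also the 3 lowest muscles for *Fgb* and *Fgg*, and lay between -0.53 and -0.13 in the other 3 muscles. All 8 markers were called higher in heart than in brain, with a median difference of 4.41. Whether RNA of liver origin had a part in the levels outside the liver was not tested.

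Without the brain of WT mouse 1 and the heart of WT mouse 2, all 10 genes were still called higher in liver than in the mean of the others, by 6.86 (*F9*) to 12.56 (*Fgb*). Heart was then still called higher than brain for 9 of the 10, *Fgb* by 5.85, and *F5* differed by 0.06.

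The comparison of KI with WT mice asked whether the Rap1 change moved these transcripts within a tissue. In liver, no gene passed limma's adjusted threshold among 10 tested, and none did at an unadjusted p under 0.05 (0% of 35241 probes passed the adjusted threshold, and 750 probes had an unadjusted p under 0.05). The KI mean was lower for 5 genes (*F2*, *F10*, *Fgb*, *Fgg* and *Serpinc1*) and higher for 5. In the livers the probes used read 7.81 to 9.47 for the 5 lower genes and 3.85 to 5.83 for the 5 higher. The second *Fga* probe, at 7.32 to 7.85, was 0.21 higher in KI livers. The levels of KI and WT livers overlapped for all 10 genes, where 5.84% of all probes had groups that did not overlap. The differences ran from -0.33 (*Fgb*) to 0.26 (*Fga*), and their 95% confidence intervals spanned -0.96 to 0.91. A p above the threshold does not show that the groups were equal, since these intervals reach nearly 1 log2 step to either side.

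The largest differences in liver were those of *Fgb*, with 8.997 ± 0.41 in WT and 8.67 ± 0.23 in KI mice (SD, n = 3; KI minus WT -0.33, 95% interval -0.96 to 0.30, limma adjusted p = 1), *Serpinc1*, with 8.82 ± 0.39 and 8.50 ± 0.26 (KI minus WT -0.32, 95% interval -0.95 to 0.31, limma adjusted p = 1), and *Fgg*, with 8.77 ± 0.42 and 8.48 ± 0.26 (KI minus WT -0.29, 95% interval -0.94 to 0.36, limma adjusted p = 1). The unscaled signals of these genes had log2 ranges of only 0.26 to 0.29 over the 6 livers. Their scaled differences therefore carry the 75th percentile subtracted on each array. WT mouse 2, whose liver array had the lowest 75th percentile (573.1), was the highest of the 6 livers for each of these genes. Without that mouse the differences were -0.09 for *Fgb*, -0.09 for *Serpinc1* and -0.05 for *Fgg*, and with quantile normalization they were -0.05, -0.03 and -0.02. *Fga* ran the other way, with 4.72 ± 0.07 in WT and 4.98 ± 0.49 in KI mice (KI minus WT 0.26, 95% interval -0.39 to 0.91, limma adjusted p = 1), and KI mouse 2 was the highest liver. Without KI mouse 2 the *Fga* difference was 0.0082, and without KI mouse 1, the lowest liver, it was 0.50. The lowest exact permutation p of the 10 genes was 0.3, where 3 against 3 mice cannot go below 0.1. The median of 8 hepatocyte markers was -0.24 for KI minus WT in liver, with all 8 lower in KI. WT mouse 2 was the highest liver for 6 of these 8. The markers share the 75th percentile subtracted on each array, so this value is not a separate reading of hepatocyte content.

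**Figure D3:**
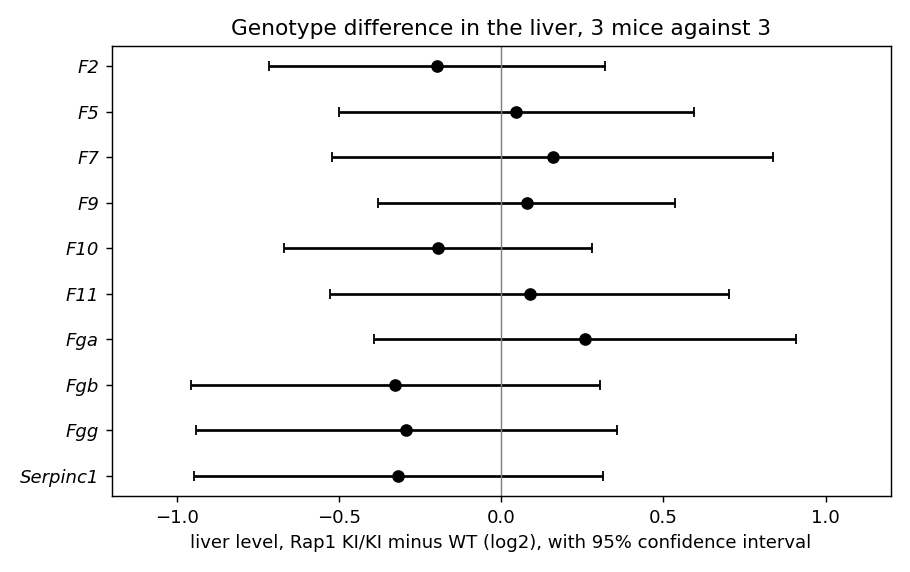
Difference between KI and WT livers for each of the 10 genes (log2, KI mean minus WT mean, 3 mice each) with its 95% confidence interval from limma. Every interval crosses 0, and the differences lie between -0.33 and 0.26.

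Outside the liver no gene passed either. In brain, 6 genes were tested and differences lay between -0.42 and 0.66 (limma adjusted p = 1 throughout). In heart, 9 were tested, with differences of -0.57 to 0.84 (limma adjusted p 0.703 to 0.995). In muscle, 10 were tested, with differences of -1.43 (*Fgg*) to 1.01 (*F5*) and limma adjusted p of 0.939 to 0.95.

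The muscle difference of *Fgg* rested on levels of -1.57, -3.14 and -1.52 in WT and of -4.44, -4.75 and -1.33 in KI mice, which overlapped. The hepatocyte markers differed between KI and WT muscles by a median of -0.91, and none of them passed the threshold. By the probe used for each gene, none had an unadjusted p under 0.05 or non-overlapping groups in brain, heart or muscle, where 7.73%, 14.7% and 6.44% of all probes had groups that did not overlap. The second *F7* probe, too dim to be tested in these tissues, had groups that did not overlap in brain, where it was well above background on 2 WT and no KI arrays, and in muscle, where it was on none (exact permutation p = 0.1 in both, the smallest that 3 against 3 mice allow). Its KI minus WT difference was -0.76 in brain and -1.36 in muscle. By the probe used for *F7* these differences were -0.37 and 0.77, so the probes pointed in opposite directions in muscle. Of all probes, 0% passed the adjusted threshold in brain, in heart and in muscle, and 992, 2617 and 802 had an unadjusted p under 0.05. A test of whether the genotype difference itself varied between tissues called 0 of the 10 genes and 0% of 42463 probes.

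As scaled levels, the fibrinogen chains differed in how they varied from liver to liver. Scaled *Fgb* and *Fgg* moved together over the 6 livers (Pearson r 0.99, exact permutation p = 0.00139, adjusted over 3 pairs 0.00417; Spearman rho 1, exact permutation p = 0.00278, adjusted 0.00833). Their unscaled signals varied little (log2 ranges 0.26 and 0.29), so both scaled levels largely followed the scaling term subtracted on each array. This correlation and its p therefore cannot show whether the transcripts themselves moved together. Without the 2 livers farthest from the median of *Fgb*, r of *Fgb* with *Fgg* was 0.89. For *Fga* no correlation with them passed: r was -0.36 with *Fgb* (exact permutation p = 0.382, adjusted 0.439; rho -0.66, p = 0.175, adjusted 0.175) and -0.33 with *Fgg* (exact permutation p = 0.439, adjusted 0.439; rho -0.66, p = 0.175, adjusted 0.175), and -0.84 and -0.81 without the 2 farthest livers. The second *Fga* probe gave r of -0.71 with *Fgb* and -0.73 with *Fgg* (unadjusted exact permutation p = 0.0403 for both), with rho -0.77 and p = 0.103 for both, and r of -0.52 and -0.57 without the 2 farthest livers.

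The scaling of the arrays moved with this pattern. The unscaled signal of *Fgb* ran only from 407000 to 489000 over the livers, a log2 range of 0.26, while its scaled level had a range of 1.07. The same held for *Fgg* (0.29 against 1.07) and *Serpinc1* (0.29 against 1.06). In *Fga* the unscaled range, 1.65, exceeded the scaled range of 0.99, and in *F9* these ranges were 1.50 and 0.37. The liver of WT mouse 2, the highest for all 3 of *Fgb*, *Fgg* and *Serpinc1*, had the lowest 75th percentile (573.1) and was also the highest liver for 6 of 8 hepatocyte markers, and the liver of KI mouse 3, the lowest for all 3, had the highest (1389).

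Without scaling, r was 0.93 for *Fgb* with *Fgg* (adjusted exact permutation p = 0.0292, and r 0.57 without the 2 farthest livers), 0.61 for *Fga* with *Fgb* and 0.62 for *Fga* with *Fgg*. With quantile normalization the values were 0.84, 0.15 and 0.23, and none passed after adjustment (lowest adjusted p = 0.112). The sign of the relation between *Fga* and the other chains therefore turned with the scaling. No probe of the 10 genes was marked as saturated on any array, but the absence of that mark does not show a linear response. Whether the signals of *Fgb*, *Fgg* and *Serpinc1* in liver were compressed was not tested.

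**Figure D4:**
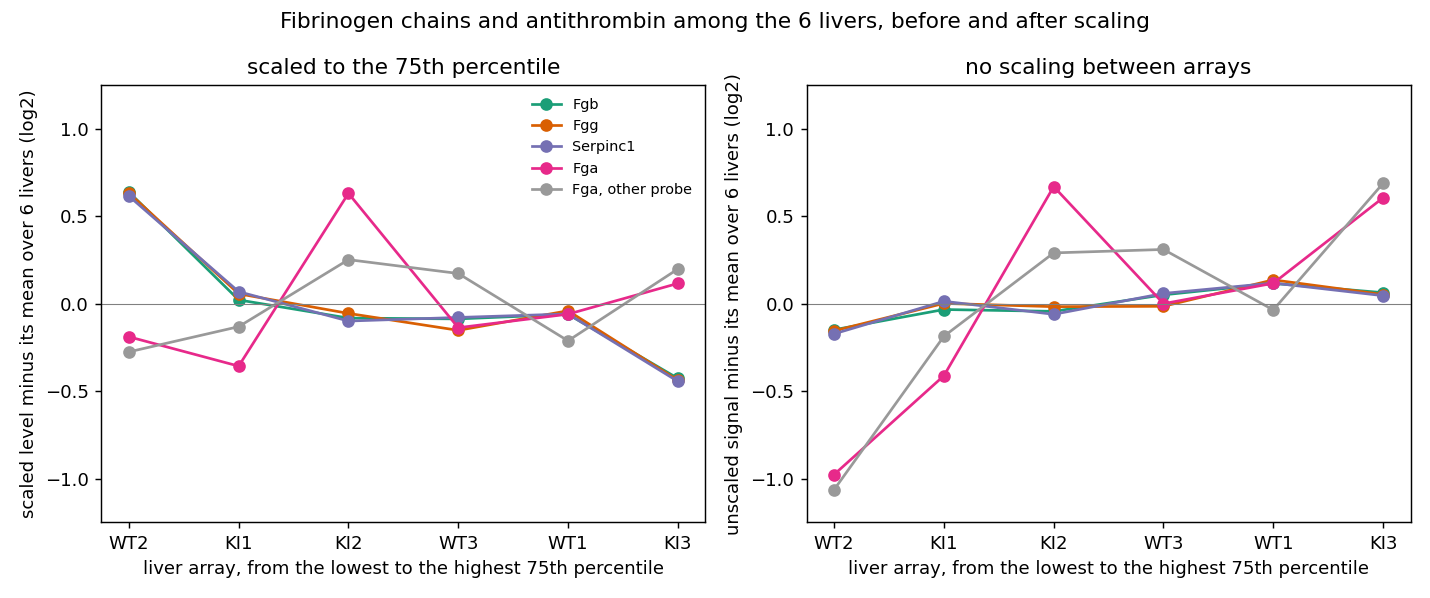
Fibrinogen chains and antithrombin in the 6 livers, as deviations from each probe's mean (vertical, log2), with scaling to the 75th percentile (left) and without it (right), the livers in order of their 75th percentile signal. *Fgb*, *Fgg* and *Serpinc1* span about 1 with scaling and under 0.3 without, while *Fga* spans 0.99 and 1.65.

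Of the other genes of coagulation and clot lysis, 34 of 35 were tested over tissues, and 23 were called higher and 11 lower in liver than in the mean of the other tissues, with a median difference of 2.97. Of all probes 39.4% were called higher and 37.8% lower in this contrast, and the counts by role that follow are to be read against these shares. The contact system, which activates factor XI from surfaces, was higher in liver in 4 of 4 genes: *Kng2* by 13.44, *F12* by 11.63, *Klkb1* by 11.02 and *Kng1* by 10.70. The kininogen genes are close copies, and their probes may not separate them. Of the further cofactors and the fibrin crosslinker, *F13b* (13.01) and *F8* (4.05) were higher in liver, while *F13a1* (-5.55), the catalytic subunit of factor XIII, and *Vwf* (-1.65), the carrier of factor VIII, were lower. The genes of initiation, tissue factor *F3* (-1.01) and its inhibitor *Tfpi* (-0.46), were both lower in liver.

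Of 8 further anticoagulant genes 6 were higher in liver, among them protein C *Proc* (11.85), *Proz* (11.19), *Serpina10* (10.68), *Serpind1* (9.35) and *Serpina5* (3.18). The 2 lower ones were the endothelial receptors *Thbd* and *Procr*, named after their values were seen. Of 8 genes of fibrinolysis, plasminogen *Plg* (12.27), *Hrg* (11.84), *Serpinf2* (11.22) and *Cpb2* (11.20) were higher, and 4 were lower, with tissue plasminogen activator *Plat* at -3.47.

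The vitamin K cycle, which serves the carboxylation of prothrombin and factors VII, IX and X, was higher in liver by less: *Vkorc1* by 4.07, *Ggcx* by 3.28 and *Vkorc1l1* by 2.11. The cargo receptor of factors V and VIII, made of *Lman1* (2.74) and *Mcfd2* (2.20), was also higher. Of the thrombin receptors 3 were tested, and *F2r* (2.28) and *F2rl2* (1.07) were higher while *F2rl3* (-2.58) was lower. Among regulators of hepatocyte genes the differences were large for *Hnf4a* (12.87), *Foxa2* (10.31), *Foxa1* (9.43) and *Nr1h4* (9.42).

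None of these genes was called between KI and WT mice in any tissue. In liver 32 of the 35 were tested, with 0 called by limma and 1 at an unadjusted p under 0.05 (2.13% of all probes were). The median difference was 0.02, against -0.01 over all probes. The fibrinogen genes share their response to interleukin-6 with the acute phase list. That list had 0 of 12 called in liver as well, and 1 higher in KI mice at an unadjusted limma p under 0.05. Its KI mean was higher for 6 genes and lower for 6, with a median difference of -0.02, and the largest differences were 2.37 for *Lcn2*, 1.42 for *Saa1* and 1.28 for *Saa2* (limma adjusted p = 1 for each).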

How the data were processed

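Labels gave tissue, genotype and mouse, and 4 tissues came from each of 6 mice. The authors deposited Agilent Feature Extraction (12.0.3.1) intensities for each array, background-subtracted and not scaled between arrays (array design build mm9), and a score table (per array, the z-score of log10 processed intensity). Processed intensities were taken to log2 and the array's 75th percentile was subtracted; 3671 control spots were left out. A probe was tested where 3 or more of a tissue's 6 arrays (any tissue, in the 24-array fit) had it well above background, and the test was limma 3.58.1 in R 4.3.3, with Benjamini-Hochberg adjustment over all tested probes and a threshold of 0.05. All 10 genes were named throughout, and up to 5 of each wider list by size of difference. Members and lists were chosen with earlier results of these data known. Alternatives changed scaling, background correction (normexp, offset 50, on median signals, since mean signals were not in the files), probe filter, probe choice, blocks and mice. The z-score table was also tried; its score equalled the one recomputed from log10 intensities within 0.005. Same-mouse deviations correlated at -0.22 to 0.26 (median 0.05, 36 pairs), and the pairing came from the labels. The number of arrays limits the precision, and p-values measure the spread between mice. Scripts were tested on simulated data. Promoters were read from the RefSeq table with Python 3.11.15. One gene of the wider lists is not reported here.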

Additional observations from a re-analysis of the deposited data

Results flagged for a closer look

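Of 40 groups of 6 arrays (10 genes in 4 tissues), 2 held an array whose gap to its neighbour took up most of the group's range, where chance gives about 1 in 20. *Serpinc1* in the brain of WT mouse 1 read -3.19, against -6.79 to -6.05 in the other brains, and *Alb* read 0.57 on that array, its highest among the brains. *F9* in the brain of KI mouse 1 read -3.19, against -3.54 to -3.43 in the other brains, a much smaller gap on a narrow range. The part of liver RNA in either value was not tested.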

How the results depend on the processing

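All 10 genes were called higher in liver than in the mean of the others, brain, heart and muscle under every alternative run, and the genotype counts in each tissue and the interaction count were 0 under every one (lowest limma adjusted p 0.632 in liver, 0.752 in brain, 0.46 in heart and 0.512 in muscle). With the mouse as a replicate block (consensus correlation 0.0258) 10 of 10 genes were called higher in liver, and the block changed no call. The sizes moved more with the background method. With normexp the liver excess over the mean of the others was 10.73 for *F2*, 7.52 for *F7* and 8.20 for *Fga*. In the main fit these values were 12.24, 9.58 and 10.64. Normexp gave the lowest liver excess of all alternatives for *F2*, *F5*, *F7*, *F9*, *F10*, *F11* and *Fga*. Slide as a block gave the lowest for *Fgb*, *Fgg* and *Serpinc1*. Heart over brain ranged from 7 to 9 genes and muscle over brain from 6 to 9. Heart over muscle, 3 genes, became 5 with normexp and 1 in WT arrays only, and ranged from 1 to 6 when each mouse was left out. Heart under muscle, 1 gene, became 2 with quantile normalization, 3 with normexp, and 0 with the authors' z-score table, the mean over probes, slide as a block and within slide 3, and ranged from 0 to 2 when each mouse was left out. The liver difference KI minus WT of *F5* (0.05) turned to -0.0033 in z-score units and to -0.0018 as the mean over probes. Leaving out single mice, it lay between -0.14 (without WT mouse 1) and 0.19, that of *F7* (0.16) between -0.10 (without KI mouse 3) and 0.41, that of *F9* (0.08) between -0.010 (without KI mouse 3) and 0.17, and that of *F11* (0.09) between -0.050 (without KI mouse 3) and 0.34, with -0.02 without KI mouse 2. The correlation of *Fga* with *Fgb* turned to 0.15 with quantile normalization and 0.61 without scaling, an alternative added after seeing the data, and with *Fgg* to 0.23 and 0.62. That of *Fgb* with *Fgg* fell to 0.84 (adjusted exact permutation p = 0.112) with quantile normalization. The causes were not tested. Signals near background limit what can be said of *Fga*, *Fgb*, *Fgg*, *Serpinc1*, *F2*, *F7*, *F10* and *F11* in brain, of *Fga* and *F11* in heart and of *F5* and *F7* in muscle.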

Other observations

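Among the 6 livers, the transcripts most like the mean of the fibrinogen chains, out of 19268 probes, were *Bach1* (Pearson r 0.9965), *Brwd3* (0.9932), *Snai1* (0.9878), *Krt13* (0.9840) and *Actb* (0.9752). These are the highest of many values over 6 arrays and are given without a test. Over the 45 pairs of the 10 genes, r among livers ran from -0.85 to 1.00, with 3 pairs above 0.9. Those were *Fgb* with *Serpinc1* (0.9972), *Fgb* with *Fgg* (0.9946) and *Fgg* with *Serpinc1* (0.9935). The closeness of scaled levels was thus not limited to fibrinogen chains. These levels share the scaling term subtracted on each array, so these r cannot show whether the transcripts themselves moved together. Without scaling, r ran from 0.41 to 0.98, with 15 pairs above 0.9.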
